A study of Sus scrofa with 12 samples.

Results

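The 441 HSMMG features are entries of the region count tables whose identifiers are the letters HSMMG followed by a number from 1 to 441. They were chosen by that prefix alone, and they make up 441 of the 770 features that the region tables count. The other 329 are Ensembl pig genes, of which 196 could be given a symbol. The whole-genome tables of the same libraries count 20741 features, the HSMMG features among them. No file used here pairs an HSMMG identifier with a gene name, a position, a length or a sequence, so each feature is known by its number and its counts.

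The study measured messenger RNA of pig muscle for genome regions linked to the water-holding capacity of meat. Of 12 animals, 6 were classed as high drip and 6 as low drip, with 3 females (replicates 1 to 3) and 3 males (replicates 4 to 6) in each class. High-drip animals were 167 to 186 days old and low-drip animals 172 to 189 days old. No treatment or genotype is given for either class, all samples carry the tissue label muscle, and each sample bears its own number in the labels and was taken as 1 animal.

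Drip is the fluid that raw meat loses after slaughter, and a meat that loses little has a high water-holding capacity. Glycogen stored in muscle is turned to lactic acid after death, which lowers the pH of the meat and the capacity of its proteins to bind water. PRKAG3, one of the named genes in these regions, encodes the gamma regulatory subunit of AMP-activated protein kinase found mainly in skeletal muscle, and inherited variation in it is known to alter muscle glycogen and meat quality in pigs.

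Levels are given as CPM, the counts of a feature per 1000000 counts that the animal's whole-genome table assigns to any feature, and these totals ran from 8009627 to 12622043 per animal. CPM is not corrected for feature length, so an order of levels between features also reflects how long they are. At these depths 3 counts, the upper limit that a count of 0 allows, correspond to 0.238 to 0.375 CPM in a single library, and such limits cover counting error only. Of 11 skeletal muscle markers, 2 were matched by symbol, and they were abundant in every library: ACTA1, the skeletal muscle actin, lay between 62165 and 86492 CPM, and PYGM, the muscle glycogen phosphorylase, between 17162 and 25464 CPM. The libraries were divided into 6 with and 6 without liver transcripts by a level of ALB, a liver marker, above or below 10 CPM. Of 16 liver markers 12 were matched. Their summed level, ALB included, was 48.1 to 561 CPM in 6 libraries (replicates 1 to 4 of high drip, 5 and 6 of low drip) and 3.71 to 10.5 CPM in the other 6 libraries. Between these sets 10 of the 12 did not overlap, among them ALB, for which the division fixed this. The share of all genes that did not overlap is not given. Of the markers of blood, fat cells and fibroblasts, 1, 2 and 3 were matched and none separated these sets. For 3 females (high-drip replicate 2, low-drip replicates 1 and 2) the whole-genome table recorded for the animal matched another library, so it is in doubt which record is theirs, and for replicate 2 of each class the records give opposite drip labels. The region table was taken as the animal's own, and the drip results are also given with the labels of the matching whole-genome records. The HSMMG counts themselves did not depend on which kind of table was read: all 441 were the same in the 2 tables of every library, whereas 57 of the 329 Ensembl genes differed in at least 1 library.

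Most HSMMG features were detected in these muscles, at a low level. Of the 441, 334 (75.7%) had at least 1 count in all 12 animals, 82 had counts in 1 to 11 animals and 25 (5.67%) had none in any animal. Among the 329 Ensembl genes of the regions, 219 (66.6%) were counted in all 12 animals and 38 (11.6%) in none. A single animal showed 380 to 400 of the HSMMG features, 387 ± 7.69 in the high-drip animals and 385 ± 2.93 in the low-drip animals (SD, n = 6 each), and the 400 belonged to high-drip replicate 2, the most deeply sequenced library. The share seen in all animals depended on the count required. With at least 5 counts in every animal it was 219 of 441 (49.7%), and with at least 10 it was 163 (37.0%), against 198 (60.2%) and 192 (58.4%) of the Ensembl genes. At least 10 counts in at least 1 animal were found for 321 HSMMG features (72.8%) and 222 Ensembl genes (67.5%). The HSMMG share was thus the larger for a count in some or all animals and the smaller where 5 or 10 counts were required in every animal, which is a description without a test.

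The mean level of an HSMMG feature with any count ran from 0.0066 to 284 CPM, a span of 4.63 orders of magnitude. The Ensembl genes of the regions spanned 5.85 orders and reached 4674 CPM. The median over all 441 HSMMG features was 1.14 CPM and that over the Ensembl genes 4.29 CPM. At least 1 CPM was reached by 240 HSMMG features (54.4%), at least 10 CPM by 52 (11.8%) and at least 100 CPM by 4. The highest 5 HSMMG features made up 32.1% of their summed mean CPM, the highest 10 made up 42.3%, the highest 20 made up 56.8% and the highest 50 made up 76.0%. Among the Ensembl genes the highest 5 and 10 made up more, 51.4% and 60.5%. Together the HSMMG features took 18.0% ± 1.60 of the region counts in the high-drip animals and 18.4% ± 0.841 in the low-drip animals (SD, n = 6 each), or 0.300% ± 0.0374 and 0.298% ± 0.0155 of the whole library.

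**Figure D1:**
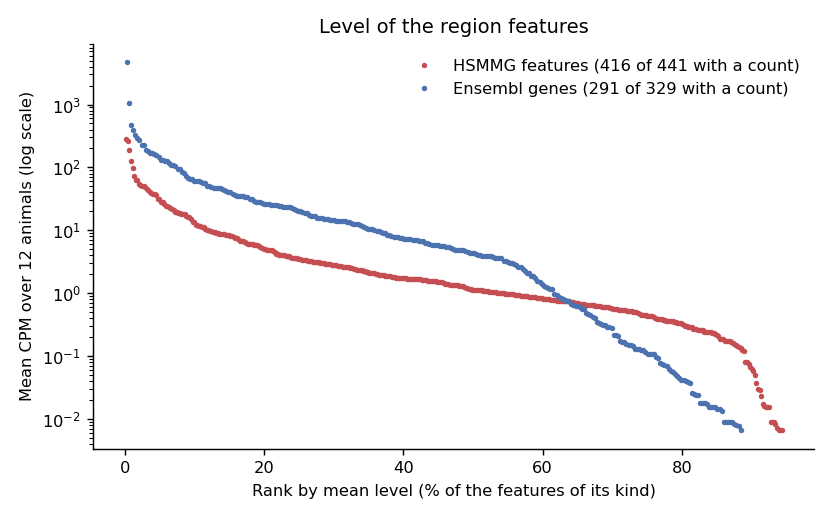
Mean CPM over 12 animals on a log scale against rank, the rank given as a percentage of all features of the kind, for HSMMG features (red) and Ensembl genes of the regions (blue). The HSMMG curve starts lower, at 284 against 4674 CPM, and stays above 0 for a larger share of its features, 416 of 441 against 291 of 329.

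The 3 most abundant HSMMG features differed little between animals. HSMMG35 was highest, at 230 CPM in the lowest, 279 in the median and 334 in the highest of the high-drip animals, and at 244, 285 and 328 CPM in the low-drip animals. HSMMG49 was at 204, 277 and 317 CPM in the high-drip and 239, 250 and 286 CPM in the low-drip animals. HSMMG382 was at 148, 181 and 270 CPM in the high-drip and 148, 183 and 248 CPM in the low-drip animals. The drip classes overlapped almost fully in all 3. HSMMG187, the fourth, varied far more, from 59.0 to 223 CPM, and is described with PRKAG3 below. Next in level were HSMMG378, HSMMG342, HSMMG374 and HSMMG102, with means of 98.7, 73.9, 63.3 and 62.7 CPM.

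At like mean counts, HSMMG features with at least 30 counts varied between animals somewhat more than the Ensembl genes. For features with a mean of 30 to 100 counts, the median SD of log2 CPM over the 12 animals was 0.47 for 73 HSMMG features and 0.37 for 65 Ensembl genes. For 100 to 300 counts it was 0.34 (31 features) against 0.27 (58 genes), and for 300 to 1000 counts 0.25 (18 features) against 0.22 (36 genes). In the bin of 10 to 30 counts the order was the other way, 0.52 for 113 HSMMG features and 0.55 for 20 Ensembl genes. All log2 CPM values carry a pseudocount of 0.5 counts, and these medians are descriptions.

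Some HSMMG features showed a wide gap between a lower and a higher set of animals, though the animals within a set could also differ widely. The widest gap between neighbouring animals in the order of log2 CPM, with at least 2 animals on each side, was over 1 log2 unit in 15 of 258 HSMMG features (5.81%) and in 3 of 204 Ensembl genes (1.47%), among the 462 region features that passed the filter on low counts for the drip comparison. The threshold was chosen after the values were seen. The 2 kinds were not matched by count here: 113 HSMMG features but only 20 Ensembl genes had a mean of 10 to 30 counts. The part of low counts in these shares was not tested. HSMMG418 was a case with animals of both classes on both sides: 7 animals lay between 1.998 and 2.46 CPM and 5 between 0 and 0.296 CPM. The low 5 were replicates 2, 4 and 6 of high drip and replicates 1 and 6 of low drip, so both sexes, both drip classes and libraries with and without liver transcripts were on each side.

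HSMMG323 showed 8 animals between 2.11 and 2.93 CPM and 4 between 0.296 and 0.648 CPM. Its 4 low animals were replicates 5 and 6 of high drip and replicates 1 and 2 of low drip, all with low liver transcripts, while low-drip replicates 3 and 4, also low in liver transcripts, were among the high 8. HSMMG401, singled out after its values were seen, was the most abundant of the 15, with 4 animals between 2.16 and 4.34 CPM (replicates 2 and 6 of each drip class) and 8 between 11.5 and 24.7 CPM. HSMMG316 had 8 animals between 0.108 and 1.28 CPM and 4 between 3.12 and 7.91 CPM.

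HSMMG332 and HSMMG331, next to each other in number, shared their high animals. HSMMG332 was at 9.19 CPM in high-drip replicate 4, 10.2 in low-drip replicate 5 and 11.6 in low-drip replicate 6, all males, and at 0.217 to 1.77 CPM in the other 9 animals. HSMMG331 was at 7.09, 9.28 and 7.40 CPM in the same 3 males and at 0.324 to 2.66 CPM in the other 9. All 3 libraries carried liver transcripts, but the 3 females whose libraries did so too (high-drip replicates 1 to 3) were at 0.475 to 0.871 CPM of HSMMG332. HSMMG372, HSMMG301 and HSMMG397 were listed at 0 in 2, 2 and 4 animals and reached 2.10, 2.11 and 3.50 CPM in others. Their counts are few, and a 0 allows up to 3 counts in a library.

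**Figure D2:**
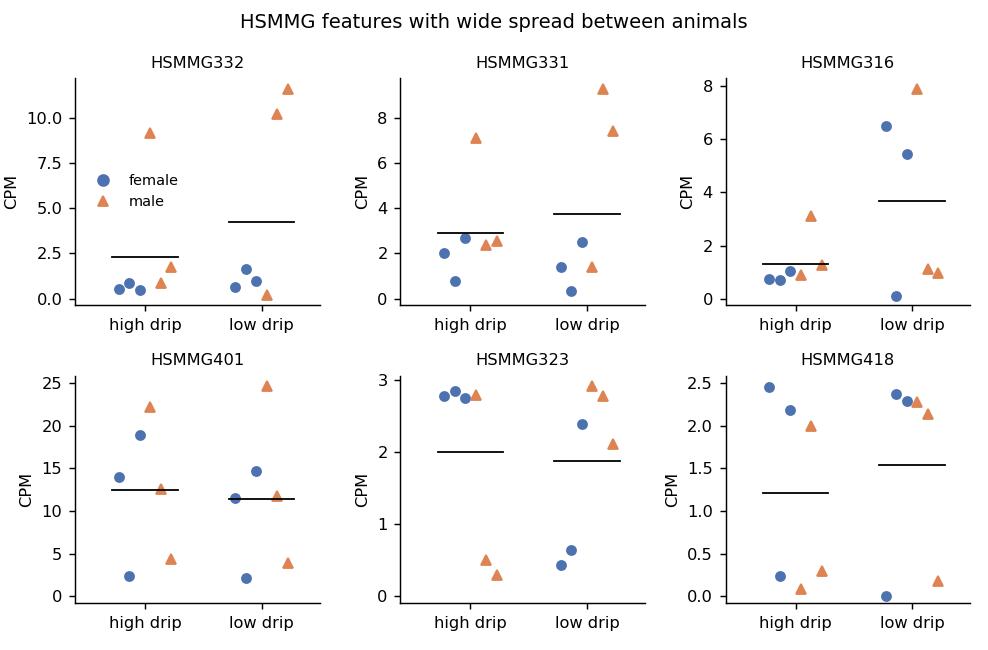
CPM (linear scale, each panel with its own axis) of 6 HSMMG features in the 12 animals by drip class, females as blue circles, males as orange triangles, horizontal bars the class means. HSMMG332 and HSMMG331 are high in the same 3 males, and HSMMG418 lies either at 1.998 to 2.46 CPM or at 0 to 0.296 CPM.

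The first comparison asked whether muscles of high and low drip differed in the HSMMG features. None of them changed by the test used. With edgeR's quasi-likelihood test on the counts, sex as a covariate and adjustment over the 462 region features that passed the filter (258 HSMMG features and 204 Ensembl genes), 0 of the 258 passed an adjusted p of 0.05 against 0% of all features tested, and the smallest adjusted p was 0.993. At an unadjusted p under 0.05 there were 11 HSMMG features (4.26%), against 3.03% of all 462, of which 8 were higher and 3 lower in high drip, against 1.73% and 1.3% of all 462 in those directions. DESeq2 gave 0 (0%) at the adjusted threshold and 6 HSMMG features at the unadjusted one (1.95% of all 462). Limma voom gave 0 (0%) and 5 (1.73%). The remaining 183 HSMMG features were too low to be tested.

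The log2 differences of the 258 features, high minus low drip, centred on zero: 128 were above it and 130 below, with a median of -0.01 and a range from the 5th to the 95th percentile of -0.43 to 0.54. The median over all 462 features was -0.01 as well. The median standard error of an HSMMG difference was 0.26, against 0.16 for the Ensembl genes, so differences of the size most features showed were not detectable with 6 animals a class. No tested feature of either kind had drip classes that did not overlap (0 of 462, 0%). Among the 245 features with a count that were too low to test, 158 of them HSMMG, there was 1 (0.408%): HSMMG136, named after its values were seen, lay between 0.569 and 0.856 CPM in the high-drip animals and between 0.216 and 0.440 CPM in the low-drip animals, levels of a few counts per library. If replicate 2 of each class (at 0.713 and 0.324 CPM) exchanged labels, its classes would overlap.

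The 10 features with the smallest unadjusted p are given as values that did not pass. HSMMG85 was at 2.37, 4.35 and 6.24 CPM in the lowest, median and highest high-drip animal and at 2.27, 3.01 and 3.47 CPM in the low-drip animals. Its classes overlapped, with high-drip replicate 3 below 5 of the low-drip animals, and its log2 difference was 0.54 ± 0.17 (SE). HSMMG240 was at 3.99, 5.84 and 8.49 CPM in high drip and 2.81, 3.86 and 5.20 CPM in low drip, a log2 difference of 0.55 ± 0.21. HSMMG237, HSMMG89, HSMMG369, HSMMG256 and HSMMG113 had values of 0.76 ± 0.29, 0.62 ± 0.25, 0.71 ± 0.30, 0.43 ± 0.19 and 0.55 ± 0.25.

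The 3 with lower levels in high drip were HSMMG210, HSMMG316 and HSMMG280. HSMMG210 was at 2.14, 3.92 and 6.999 CPM in high drip and 2.72, 7.03 and 11.1 CPM in low drip, a log2 difference of -0.81 ± 0.35. HSMMG280 differed by -0.56 ± 0.25. For HSMMG316 the difference was -1.56 ± 0.69, and it rested on 3 low-drip animals (replicates 1, 3 and 4) at 6.49, 5.45 and 7.91 CPM, while the other 3 lay at 0.108 to 1.11 CPM, within or below the high-drip range of 0.713 to 3.12 CPM. Liver transcripts were low in those 3 animals and in the lowest, low-drip replicate 2; their part in the difference was not tested. With the drip labels of the matching whole-genome records for the 3 females in doubt, edgeR still called 0 HSMMG features. The log2 differences were then 0.23 for HSMMG85, 0.31 for HSMMG240, 0.31 for HSMMG89, -0.20 for HSMMG210, -0.05 for HSMMG280 and -1.74 for HSMMG316.

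**Figure D3:**
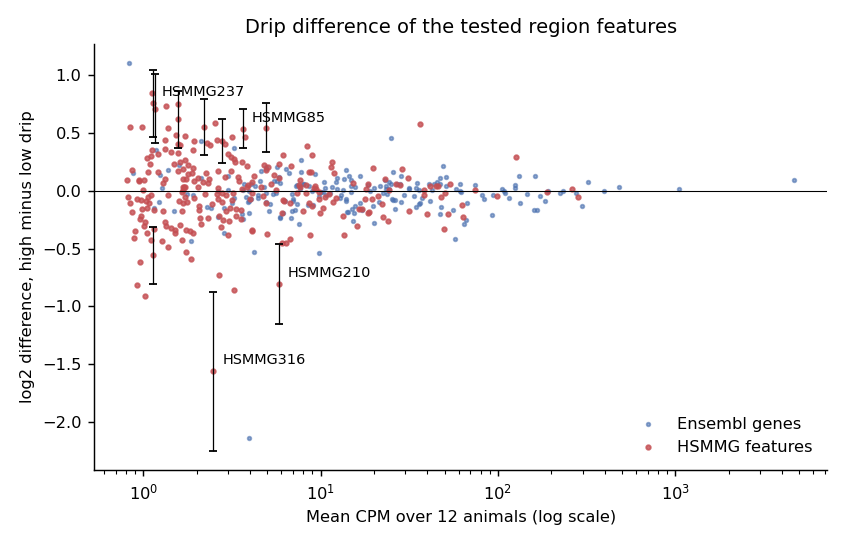
Log2 difference between high-drip and low-drip animals (edgeR, sex as covariate) against mean CPM on a log scale for 258 HSMMG features (red) and 204 Ensembl genes (blue), with bars of 1 SE on the 10 HSMMG features of smallest p. The points spread around zero, most widely at low CPM, and none passed the adjusted threshold.

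A difference between the sexes was looked for in the same fit. It found 0 of 258 HSMMG features at the adjusted threshold (0% of all 462), with a smallest adjusted p of 0.616 in edgeR, and 15 (5.81%) at an unadjusted p under 0.05, against 5.19% of all features. DESeq2 and limma voom also gave 0 (0% each), with 4.55% and 5.63% of all features at the unadjusted threshold. No tested feature separated the sexes (0%). The smallest p belonged to HSMMG332, with medians of 0.760 CPM in females and 5.48 in males and a log2 difference, male minus female, of 2.75 ± 0.76. That difference came from the 3 high males named above, and the other 3 males, at 0.217 to 1.77 CPM, overlapped the females at 0.475 to 1.62 CPM. Without low-drip replicate 4 the edgeR adjusted p of HSMMG332 was 0.0498 and its difference 3.05. The next were HSMMG152 at -1.25 ± 0.38, HSMMG155 at -1.26 ± 0.39, HSMMG329 at 0.96 ± 0.30 and HSMMG288 at 0.53 ± 0.17, none past the adjusted threshold.

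The design, with 3 animals in each combination of sex and drip, also allows the drip difference to be compared between the sexes. Among the 5 HSMMG features with the smallest p in that test were HSMMG174, HSMMG175, HSMMG176 and HSMMG187, whose means were above the high-drip mean in low-drip females and below it in low-drip males. HSMMG175 was at 31.4, 29.5 and 27.8 CPM in high-drip females and 61.8, 36.2 and 47.0 in low-drip females. In males it was at 24.4, 62.3 and 74.8 CPM with high drip and 23.4, 5.57 and 12.9 with low drip. The female classes did not overlap, and every low-drip male lay below every high-drip male, at the closest 23.4 against 24.4 CPM. HSMMG175 was picked by its small p, and the share of all features that separate so within a sex is not given. Its male drip difference exceeded the female one by 2.47 ± 0.57 on the log2 scale, with an edgeR adjusted p of 0.197.

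HSMMG165 had the smallest p, a difference of 2.80 ± 0.55 with an edgeR adjusted p of 0.105, at levels of 0.499 ± 0.133 and 1.12 ± 0.127 CPM in high-drip and low-drip females and 1.07 ± 0.159 and 0.296 ± 0.130 CPM in high-drip and low-drip males (SD, n = 3 each). HSMMG176 differed by 2.80 ± 0.77, HSMMG174 by 1.92 ± 0.55 and HSMMG187 by 1.23 ± 0.37, and PRKAG3 itself by 1.03 ± 0.31, with edgeR adjusted p of 0.370 for HSMMG176 and 0.396 for the other 3. In all, 0 of 276 HSMMG features tested for this term passed (0% of 483 features) and 18 (6.52%) had an unadjusted p under 0.05, against 5.18% of all features. Limma voom gave 0 (0%, and 4.55% of all features unadjusted). DESeq2 called 1 HSMMG feature, HSMMG175, at 2.45 with an adjusted p of 0.00304, among 0.414% of all features (3.73% unadjusted).

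With the drip labels of the matching whole-genome records, the interaction test of edgeR called 0 HSMMG features. The female classes of HSMMG175 then overlapped, and the difference was 2.29 for HSMMG175 and 1.88 for HSMMG165, with adjusted p of 0.486 and 0.653. Single animals decided this result. Without high-drip replicate 4, edgeR called HSMMG175 (2.79), HSMMG187 (1.52) and HSMMG323 (-4.22), and without low-drip replicate 4 it called HSMMG175 (2.94) and HSMMG176 (4.24, adjusted p = 0.00480). The share of HSMMG features with a positive difference was 58.7% with TMM scaling, a correction for composition, and 73.2% without it, when the median of all features moved from 0.0006 to 0.19. Liver transcripts were high in all high-drip females and no low-drip female, so in females liver transcripts and drip cannot be told apart. In males they were high in high-drip replicate 4 and low-drip replicates 5 and 6. Liver transcripts thus nearly followed the interaction, high in high-drip females and low-drip males, and are not independent of it. The only animals outside that pattern were high-drip replicate 4 and low-drip replicate 4, the same whose omission gave calls. Over all alternatives the interaction difference stayed positive but varied widely. Its lowest values were 0.106 for HSMMG187, 0.455 for HSMMG174, 0.872 for HSMMG175, 0.948 for HSMMG176 and 1.88 for HSMMG165. A fit with liver transcripts as a term was among these alternatives, and which alternative gave each lowest value is not given here. In bulk tissue, fewer cells of a type and less RNA per cell cannot be told apart either.

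The features that followed PRKAG3 (ENSSSCG00000016200) across the animals were the next question. Of the 258 HSMMG features tested, 4 correlated with it past an adjusted permutation p of 0.05 (1.55%), against 1.08% of all 461 features compared, and all 4 rose and fell with PRKAG3. The same number passed by rank (Spearman), against 0.868% of all features. The fifth feature past the threshold by r was TMED4, with r = 0.925, which did not pass by rank. It is an Ensembl gene for a protein of the transport vesicles between endoplasmic reticulum and Golgi. In the RefSeq gene order of Sscrofa11.1, a later pig assembly than that of the counts, TMED4 lies on another chromosome than PRKAG3.

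HSMMG187 was the closest, with r = 0.982 and rho = 0.944 over 12 animals. Its permutation p of 1e-05 was the smallest that 100000 permutations can give, and its adjusted p was 0.000922. PRKAG3 was at 121, 127 and 112 CPM in high-drip females, 90.8, 166 and 200 in high-drip males, 166, 159 and 171 in low-drip females and 126, 68.5 and 73.7 in low-drip males. HSMMG187 was at 107, 131 and 110, at 80.2, 174 and 223, at 159, 145 and 153, and at 106, 59.0 and 67.6 CPM in the same animals. Among the 6 males the order of the animals was the same for both, and in both the lowest were low-drip replicates 5 and 6 and the highest was high-drip replicate 6. Among the 6 females rho was 0.886 and r 0.943, against r = 0.990 in males. Both levels also followed the division by liver transcripts. PRKAG3 was at 68.5 to 127 CPM in the libraries with them and 126 to 200 in those without, and HSMMG187 at 59.0 to 131 and 106 to 223 CPM. The part of this division in r over 12 animals was not tested, and r within each set is given below.

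HSMMG174, HSMMG175 and HSMMG176, consecutive in number, followed with r = 0.937, 0.934 and 0.917 and rho = 0.895, 0.916 and 0.930, each with a permutation adjusted p of 0.000922 for r. They varied over a wider range than PRKAG3 did. HSMMG174 ran from 1.76 CPM in low-drip replicate 5 to 15.0 in high-drip replicate 6, and HSMMG175 from 5.57 to 74.8 CPM in the same 2 animals. HSMMG176 fell to 0.464 and 0.264 CPM in replicates 5 and 6 of low drip and held 2.09 to 6.93 CPM in the other 10. PRKAG3 itself ranged only from 68.5 to 200 CPM.

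The correlations were recomputed without the 2 animals farthest from the PRKAG3 median on the log2 scale, low-drip replicates 5 and 6. They were then 0.963 for HSMMG187, 0.878 for HSMMG174, 0.881 for HSMMG175 and 0.871 for HSMMG176, and with 10 animals HSMMG187 passed the permutation threshold adjusted over all features, while the other 3 had adjusted p of 0.0793, 0.0657 and 0.101. Leaving out any 1 animal kept r of HSMMG187 between 0.974 and 0.986. In the 6 libraries that carried liver transcripts the values were 0.984, 0.889, 0.901 and 0.890 for HSMMG187, HSMMG174, HSMMG175 and HSMMG176, and in the 6 without they were 0.966, 0.892, 0.903 and 0.701. By sex, r was 0.741 in females and 0.959 in males for HSMMG174 (exact permutation p = 0.126 and 0.00417), 0.857 and 0.939 for HSMMG175, and 0.923 and 0.902 for HSMMG176. Whether r differs between the sexes was not tested. The exact permutation p for HSMMG187 was 0.00278 in the libraries with liver transcripts and 0.0194 in those without. For HSMMG176 in the libraries without liver transcripts it was 0.107.

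The next features did not pass. HSMMG183 had r = 0.843 (permutation adjusted p = 0.0553) and HSMMG346 r = 0.802 (0.0918), and within the libraries without liver transcripts these fell to -0.08 and 0.30. HSMMG183 did pass with sex and drip removed (r = 0.848, permutation adjusted p = 0.0300) and without high-drip replicate 2, low-drip replicate 3 or low-drip replicate 4 (0.870, 0.866 and 0.899). The number of HSMMG features past the threshold was 4 or 5 with any 1 animal left out and 6 with sex and drip removed. The share over all features is not given for these settings, so the counts say nothing particular to HSMMG features. The lowest values were those of HSMMG323 at -0.68 and HSMMG331 at -0.66, and the sign turned for HSMMG323 in the libraries with liver transcripts (0.52) and for HSMMG331 in those without (0.34). Over all 258 HSMMG features r was positive in 192, with a median of 0.25, and the median of the Ensembl genes was 0.28, so a weak positive value is the ordinary one here.

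**Figure D4:**
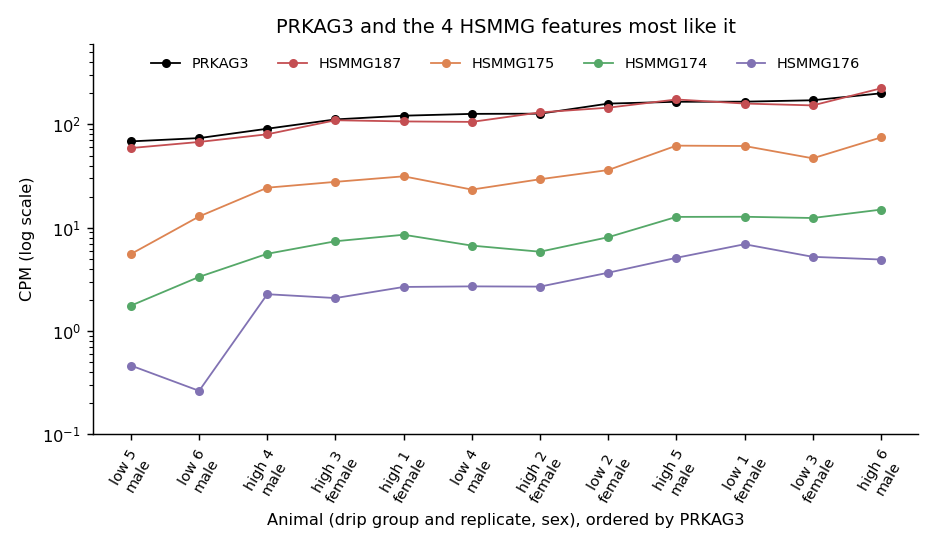
CPM on a log scale of PRKAG3 and the 4 HSMMG features most like it in the 12 animals, ordered by PRKAG3, each labelled with drip class, replicate and sex. HSMMG187 tracks PRKAG3 from 59.0 to 223 CPM, and HSMMG176 drops in low-drip replicates 5 and 6.

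**Figure D5:**
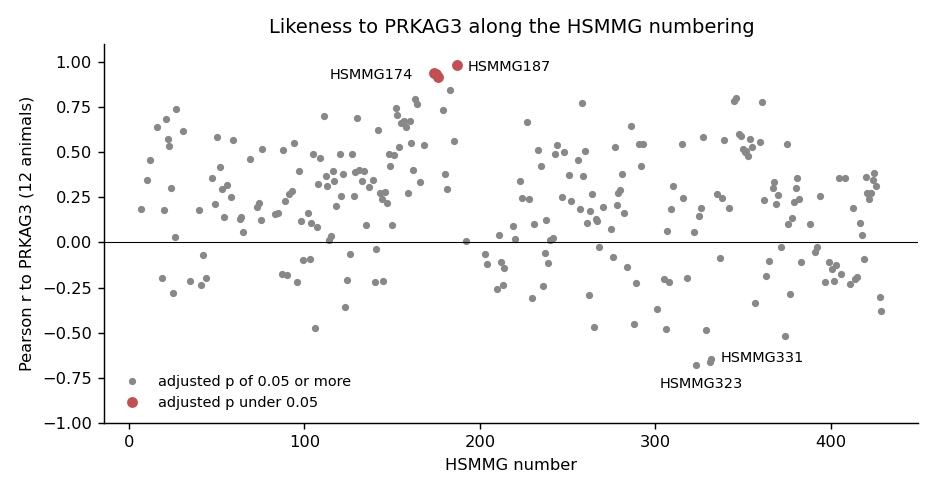
Pearson r to PRKAG3 over 12 animals against the HSMMG number for the 258 tested features, red where the adjusted permutation p was under 0.05. The 4 red points lie at numbers 174 to 187.

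The HSMMG numbers carried a pattern of their own, seen after the data were examined. Among the 126 HSMMG features with a mean of at least 30 counts, the 55 pairs of neighbouring numbers had a median r of 0.62 across animals, and 32.7% of them were above 0.7. Over all 7875 pairs the median was 0.13 and 2.63% were above 0.7. The median was 0.28 at distances of 2 and of 3, 0.34 at 4 to 5, 0.24 at 6 to 10, 0.15 at 11 to 20 and 0.09 at 21 to 50. All pairs share the same 12 libraries, so these are descriptions without a p. With TMM scaling the neighbours' median was 0.58 and that of all pairs 0.01, and with sex and drip removed 0.61 and 0.15.

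Of the 18 pairs above 0.9, 12 were at most 5 numbers apart. HSMMG174 and HSMMG175 were the closest pair, with r = 0.985. HSMMG157 and HSMMG158 had 0.964, HSMMG22 and HSMMG23 0.963, HSMMG156 and HSMMG157 0.962, HSMMG212 and HSMMG213 0.958, and HSMMG251 and HSMMG252 0.930. HSMMG187 joined HSMMG175 at 0.941 and HSMMG174 at 0.923, 12 and 13 numbers away. Pairs far apart in number also occurred, such as HSMMG23 and HSMMG353 at 0.921.

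Each of the 126 features was then set beside the most similar of the 183 Ensembl genes with at least 30 counts. For 26 (20.6%) this r was above 0.9, and by the same measure, against the other Ensembl genes, it was for 16 of the 183 Ensembl genes (8.74%). The median best r was 0.82 for the HSMMG features and 0.81 for the Ensembl genes, values that come from choosing the highest of many. The best gene was not always well apart from the second: of the 26, the second r was within 0.05 in 7 and more than 0.1 lower in 14. The features from HSMMG154 to HSMMG158 had their highest r with 2 genes. HSMMG154 was most like PLCD4, a phospholipase C of the delta class, with r = 0.953, and HSMMG156, HSMMG157 and HSMMG158 were most like the Ensembl gene ENSSSCG00000016191, for which no symbol was found, with 0.959, 0.950 and 0.971. HSMMG155 had its highest r with the same gene, at 0.851, or 0.758 at the lowest with 1 animal left out. In the RefSeq gene order of Sscrofa11.1 PLCD4 and PRKAG3 are on the same chromosome with 6 protein-coding genes between them, and the place of ENSSSCG00000016191 was not analysed here. HSMMG158 was at 31.2, 11.7 and 16.2 CPM in high-drip females, 8.40, 18.1 and 20.001 in high-drip males, 33.9, 18.1 and 25.1 in low-drip females and 18.3, 6.13 and 18.7 in low-drip males, with every class overlapping its counterpart.

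Some matches were with genes that are near each other, picked after the values were seen. HSMMG183 had its highest r with TMED4 (0.930, then CNOT9 at 0.885), HSMMG242 with OGDH, the oxoglutarate dehydrogenase of the citric acid cycle (r = 0.899), and HSMMG251 with NUDCD3, a co-chaperone (r = 0.976, then TAB1 at 0.943). TMED4 and OGDH have 0 protein-coding genes between them in that order, and OGDH and NUDCD3 have 3. CNOT9, the second match of HSMMG183, is not near TMED4. It lies on the chromosome of PRKAG3, with 8 protein-coding genes between them, and TMED4 lies on another. Features far apart in number also shared a best gene. TMED4 was the best gene of HSMMG346 (0.893, then SGSM3 at 0.860) and HSMMG345 (0.812, then CDK5RAP3 at 0.798) too, with rho of only 0.657 and 0.615. MORC2, a chromatin-remodelling ATPase, was the best gene of 12 features numbered from 16 to 424, among them HSMMG16 at 0.936 and HSMMG353 at 0.942.

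Among the abundant features, HSMMG49 followed ARIH2, a ubiquitin ligase, with r = 0.948, and HSMMG374 followed SUN2, a protein of the inner nuclear membrane, with 0.934. HSMMG35 was most like PRKAR2A, a regulatory subunit of protein kinase A, at 0.863, and HSMMG378 most like NCAPD3, a condensin subunit, at 0.895. HSMMG342 had its highest r with CBX1, a heterochromatin protein, at 0.889. HSMMG99 had 0.977 with the Ensembl gene ENSSSCG00000011534, for which no symbol was found, and no more than 0.651 with the next gene, FUBP1.

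For 12 other named genes of the regions, the HSMMG feature most like each was listed by the same measure. NR3C1, the glucocorticoid receptor, was followed by HSMMG288 with r = 0.936, and leaving out 1 animal took this to 0.803 at the lowest. DDB1, a DNA damage-binding protein, was matched by HSMMG76 and LAMB2, a laminin chain, by HSMMG91, both at 0.892, and TCP11L2 by HSMMG414 at 0.875. SAE1, a subunit of the SUMO-activating enzyme, was matched by HSMMG181 at 0.817, and SMDT1, a regulator of the mitochondrial calcium uniporter, by HSMMG422 at 0.802. The highest r was lower for INPP5A (HSMMG10, 0.779), NDUFA6 (HSMMG345, 0.777), IMPDH2 (HSMMG31, 0.766) and OTUD7B (HSMMG102, 0.719). TNRC6B, with HSMMG236 at 0.651, and CYP2E1, with HSMMG323 at 0.627, had no close counterpart. CYP2E1 is also among the liver markers, at 0.437 to 4.04 CPM in the libraries with liver transcripts and 0 to 0.125 CPM in those without. Its r therefore rests on very low counts in the latter. The libraries were made with a kit that does not mark strand, so where an HSMMG feature overlaps or lies antisense to a gene, reads of the pair cannot be told apart, and where the features lie was not analysed here.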

How the data were processed

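The values are raw read counts per feature that the authors deposited, in 1 table for the regions and 1 for the whole genome per library. Per the submitters' processing notes TopHat2 2.0.3, Bowtie 0.12.7.0, HTSeq and the pig build Sscrofa10.2 were used; annotation, strand and overlap settings are not given in the sources used here. Rows for unassigned alignments, 39.9% to 44.4% of a whole-genome table's total, were left out of library sizes. The CPM denominator was the feature total of the whole-genome table of the same library, found by equal alignment totals and identical counts. The test on the region counts was the quasi-likelihood F test of edgeR 4.0.16, run under R 4.3.3 (filterByExpr, TMM, Benjamini-Hochberg adjustment, threshold 0.05), with sex and drip, and their product for the interaction; standard errors were derived from the F statistic. DESeq2 1.42.0 and limma 3.58.1 were alternatives, and the procedure was tested on simulated data. Correlations used log2 CPM (pseudocount 0.5) and 100000 permutations, adjusted over 461 features. Symbols came from an Ensembl name table.

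Features were named by level, smallest p, highest and lowest r to PRKAG3, on and off counts, likeness to 12 region genes, and spread. Members, lists and rules were chosen with earlier results of these data known. Nothing states more on how the samples were drawn, so p-values set a difference or a correlation against the variation between these samples only.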

Additional observations from a re-analysis of the deposited data

Results flagged for a closer look

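Of 94 groups of 6 animals examined for 44 named features and a few library measures, 9 had 1 animal far above the other 5 of its drip class. For normally distributed values, chance gives such a gap, above or below, in about 1 group in 20. The CPM were taken without a log, and several of these features were named for their spread. The 2 shares therefore cannot be set against each other. In high drip, replicate 4 stood out in HSMMG332 (9.19 CPM, next 1.77), HSMMG331 (7.09, next 2.66) and HSMMG397 (3.50, next 0.788). High-drip replicate 1 stood out in HSMMG155 (12.3 CPM, next 5.52) and HSMMG414 (8.99, next 5.52), and replicate 5 in HSMMG316 (3.12, next 1.28). In low drip, HSMMG113 was at 2.38 CPM in replicate 6 (next 1.74), HSMMG288 at 95.9 CPM in replicate 5 (next 58.2) and HSMMG422 at 2.51 CPM in replicate 3 (next 1.14).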

How the results depend on the processing

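Over 39 results and 893 alternative values, 851 kept direction and side of the threshold or stayed within the limit set for a count. The number of HSMMG features past the drip test was 0 under every alternative run. The interaction count was 0, but 1 with DESeq2 and 0 to 3 when 1 animal was left out (above 0 without replicate 4 of either class); the sex count was 1 in the 6 libraries with liver transcripts and 0 to 1 when 1 animal was left out (1 without low-drip replicate 4). The count of features following PRKAG3 was 4, and it was 1 without the 2 farthest animals and 6 with sex and drip removed. These counts under alternatives are of HSMMG features alone, without the share over all features. Requiring 5 or 10 counts lowered the features seen in all animals to 219 and 163, and scaling by the alignment total lowered the median to 0.662 CPM. Signs reversed for HSMMG113 in the drip fit (-0.28, libraries with liver transcripts), HSMMG332 and HSMMG329 in the sex fit (-2.34 and -0.48, libraries without), and the r to PRKAG3 of HSMMG183 (-0.0802, without), HSMMG331 (0.34, without) and HSMMG323 (0.52, with). The cause was not tested. The libraries divided by liver transcripts and the single-sex correlations were chosen after seeing the data. No interaction could be fitted in either set of 6 libraries. No paired analysis was possible because the labels give no replicate numbers shared by the classes; the numbers used here only name animals. Depth limits the 183 features that were too low to test.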

Other observations

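HSMMG166 and HSMMG168, close in number, were both highest in high-drip replicate 5 and low-drip replicate 1, a male and a female with low liver transcripts. HSMMG166 was at 5.87 to 6.60 CPM in these 2 animals and at 0.216 to 2.47 CPM in the other 10. HSMMG168 was at 6.74 to 7.36 CPM in the same 2 and at 0.557 to 3.32 CPM in the other 10. HSMMG146 was highest in 2 other animals, high-drip replicate 2 and low-drip replicate 4, at 4.44 to 4.66 CPM, against 0.285 to 2.25 CPM in the other 10.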
